A study of Mus musculus with 7 samples.

Results

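Type I interferon-stimulated genes are described here in splenic Tregs of aged and young mice. They are 47 genes listed by symbol, and all 47 were found among the 25469 genes of the series. The IRF family and GTPase families other than Mx were left out of the list, and Irf genes appear below among the other pathway genes. All 47 passed the low-count filter and were among the 13904 genes tested. The RNA-sequencing set out to compare Tregs of the 2 ages, using 3 libraries from 18-month-old mice and 4 from 8-week-old mice, labelled as biological replicates. All mice were WT, male and of the C57BL/6 strain, with no treatment named for these samples in the labels. The methods of the study give another age for the young mice than the labels do. Whether a library holds 1 spleen or a pool is not given in the sources used here.

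The cells were splenocytes isolated on magnetic beads as CD4+CD25+, the surface phenotype used to collect Tregs, which defines the population without a gate on the nuclear factor Foxp3. Transcripts of Foxp3 (394 to 622 CPM, gene counts scaled to library size by TMM), Il2ra, which encodes CD25, and Cd4 were present in all 7 libraries. The isolates also carried transcripts of other cells, since haemoglobin genes made up 1.24% to 13.1% of the gene counts. In such bulk RNA, fewer cells of a type and less RNA per cell cannot be told apart. Each library held 10734234 to 13649310 gene counts, so that 3 counts, taken as the detection floor, were worth 0.22 to 0.279 CPM. The lowest count of any interferon-stimulated gene was 7, for Ifi44 in a young library. The floor covers counting error only, as the cDNA carried no molecular identifiers.

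Type I interferons bind a receptor made of IFNAR1 and IFNAR2, and the kinases JAK1 and TYK2 on it then set off signalling. STAT2 and IRF9 are subunits of the resulting transcription factor, ISGF3, which binds the interferon-stimulated response element (ISRE) in front of its target genes. Interferon gamma uses a separate receptor, and many target genes answer to both. The products degrade viral RNA, block translation and virus release, sense nucleic acids, and feed back on the pathway itself.

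Promoters are shown first, because they hold the element that ISGF3 binds. RefSeq (GRCm38.p6) windows of 300 bases, from 250 bases before a start site to 50 after it, were at hand for 34 of the 47 genes. The ISRE core was searched as GAAA, any 2 bases and GAAA, which reads TTTC, 2 bases and TTTC on the other strand, and overlapping matches were kept. It stood in a window of 16 of the 34 genes (47.1%), compared with 3.99% of the 27025 genes with a window and 3.44% of all 32851 windows. The 16 were Bst2, Ddx58, Eif2ak2, Ifi203, Ifih1, Ifit1, Ifit3, Ifit3b, Isg15, Oas1a, Oas3, Phf11b, Rsad2, Stat2, Trim30a and Trim30d. The 13 genes without a window, which could not be searched, were Dhx58, Ifi204, Ly6a, Ly6e, Mx1, Mx2, Oas2, Parp14, Parp9, Rtp4, Tlr7, Usp18 and Zbp1. Of the genes called below, Parp12 and Ly6c1, like Ifi44, had a window without a match. A match is a description of letters, not a measured binding site, and its absence says only that these letters are not in the window. Capitals mark the matches in the following sequences, each printed 5′ to 3′ along the gene's strand. Oas1a and Trim30d are given as 2 of the genes that were higher in aged Tregs, Ifit3, Isg15 and Rsad2 as classic targets whose levels varied widely among libraries of the same age, and Ifi44 as the gene with the largest fold change and no match.
Oas1a (chr5:120907476-120907775, minus strand): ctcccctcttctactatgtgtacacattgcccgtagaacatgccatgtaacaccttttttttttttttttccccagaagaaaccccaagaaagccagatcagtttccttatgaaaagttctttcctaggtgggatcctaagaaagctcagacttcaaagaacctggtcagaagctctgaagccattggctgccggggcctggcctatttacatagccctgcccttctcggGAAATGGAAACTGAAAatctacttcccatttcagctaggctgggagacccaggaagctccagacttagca
Trim30d (chr7:104507800-104508099, minus strand): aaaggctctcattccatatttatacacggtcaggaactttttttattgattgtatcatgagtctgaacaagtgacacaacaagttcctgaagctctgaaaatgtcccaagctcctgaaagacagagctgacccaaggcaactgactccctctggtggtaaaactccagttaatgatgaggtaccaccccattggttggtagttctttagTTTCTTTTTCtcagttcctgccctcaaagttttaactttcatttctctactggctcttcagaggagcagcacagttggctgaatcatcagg
Ifit3 (chr19:34583279-34583578, plus strand): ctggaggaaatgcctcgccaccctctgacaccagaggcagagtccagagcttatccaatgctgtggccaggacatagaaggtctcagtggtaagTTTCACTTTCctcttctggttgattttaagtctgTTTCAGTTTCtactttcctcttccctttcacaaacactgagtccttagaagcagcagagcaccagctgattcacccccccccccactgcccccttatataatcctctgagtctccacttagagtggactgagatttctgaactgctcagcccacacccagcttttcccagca
Isg15 (chr4:156200769-156201068, minus strand): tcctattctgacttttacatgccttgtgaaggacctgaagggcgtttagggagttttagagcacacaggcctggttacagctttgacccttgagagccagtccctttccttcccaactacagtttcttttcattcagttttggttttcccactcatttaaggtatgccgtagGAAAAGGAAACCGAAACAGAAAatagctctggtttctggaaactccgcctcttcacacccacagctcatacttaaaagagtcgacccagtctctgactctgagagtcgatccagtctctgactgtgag
Rsad2 (chr12:26456403-26456702, minus strand): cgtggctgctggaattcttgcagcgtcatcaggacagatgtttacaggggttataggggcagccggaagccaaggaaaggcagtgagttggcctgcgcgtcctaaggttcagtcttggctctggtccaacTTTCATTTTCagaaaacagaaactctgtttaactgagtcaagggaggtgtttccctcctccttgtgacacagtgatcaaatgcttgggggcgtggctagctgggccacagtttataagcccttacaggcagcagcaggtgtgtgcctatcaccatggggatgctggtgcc
Ifi44 (chr3:151749861-151750160, minus strand): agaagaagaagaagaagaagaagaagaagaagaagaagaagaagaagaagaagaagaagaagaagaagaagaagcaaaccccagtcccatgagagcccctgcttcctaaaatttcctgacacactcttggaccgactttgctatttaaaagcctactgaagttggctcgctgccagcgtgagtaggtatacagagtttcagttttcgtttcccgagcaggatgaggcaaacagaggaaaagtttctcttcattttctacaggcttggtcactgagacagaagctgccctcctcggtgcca
The match nearest to the start site began 14 bases before it in Oas1a, 41 in Trim30d, 66 in Isg15, 120 in Rsad2 and 122 in Ifit3. Isg15 held 3 overlapping matches in a row.

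Aged replicate 1 stood apart from the other libraries for these genes. It was the highest of the 7 libraries for 40 of the 47 genes (85.1%), compared with 16.4% of all genes tested. On the scale of log2(CPM + 0.5), aged replicate 1 exceeded the mean of aged replicates 2 and 3 by a median of 0.80 over the 47 genes, while the median over all genes tested was -0.01. The gap was above 1 for 17 of the 47 genes and for 2.24% of all genes, and below -1 for 2 of the 47 and for 4.1% of all genes. Young replicate 2 deviated the other way. It was the lowest library for 21 of the 47 genes (44.7%, compared with 13.8% of all genes), and 10 of the 47 lay more than 1 below the mean of the other young libraries, as did 3.79% of all genes. The counts of calls, and many of the single values, are therefore given also without aged replicate 1.

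**Figure D1:**
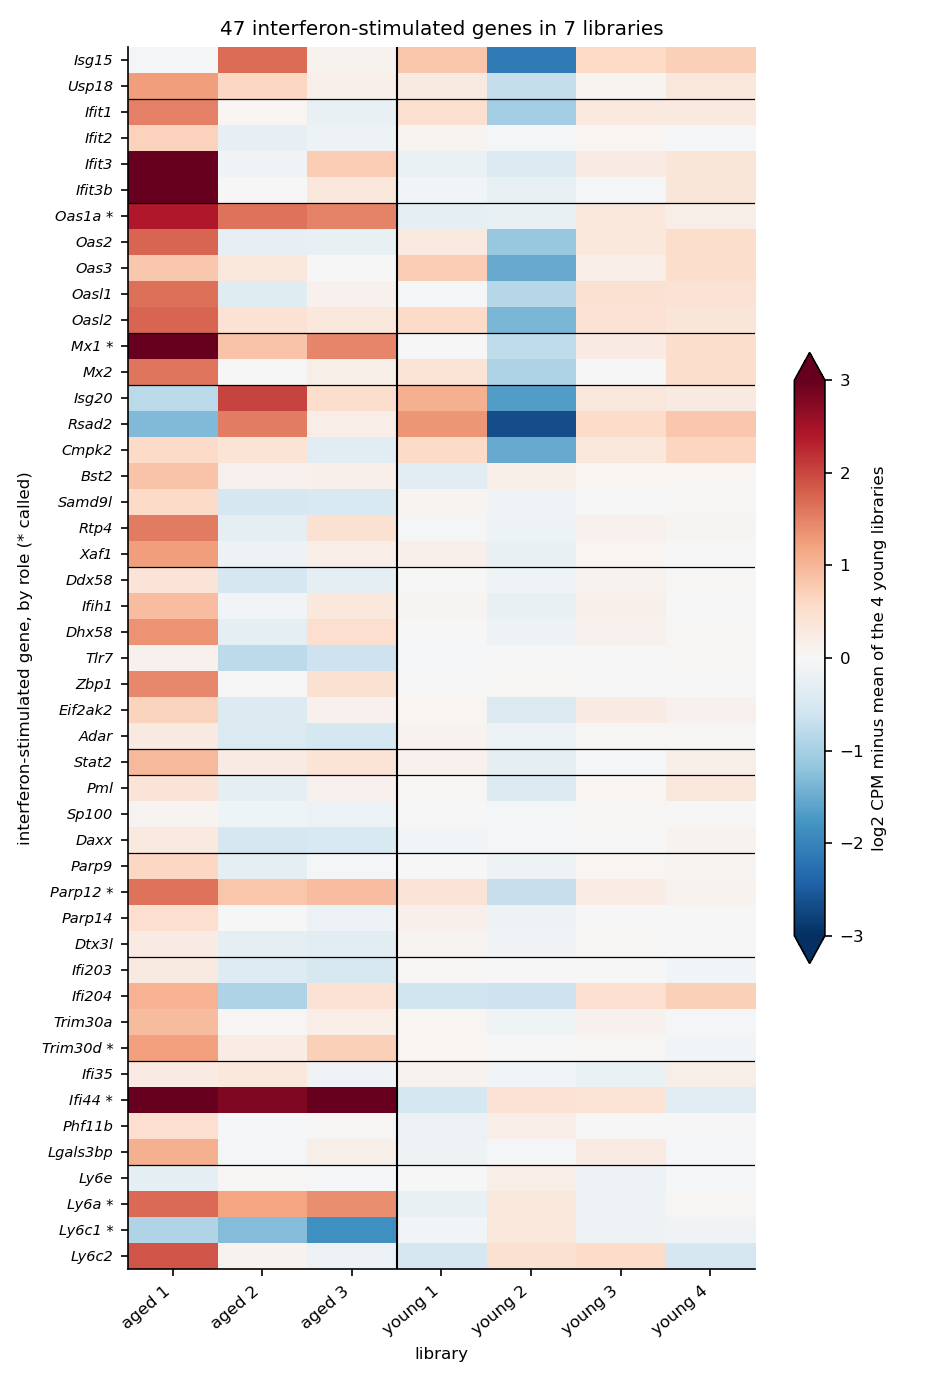
Heat map of the 47 interferon-stimulated genes (rows, grouped by role, * marks genes with an adjusted p under 0.05) in the 7 libraries (columns). Colour gives log2 CPM minus the mean of the 4 young libraries, and aged replicate 1, the left column, is the highest library in 40 of the 47 rows.

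The same libraries differed in the transcripts of other cells they carried. Summed over 11 neutrophil markers, all of them detected in every library, aged replicates 1 to 3 held 5391, 1958 and 735.5 CPM, and the young libraries 317.4 to 1011 CPM. The alarmins S100a8 and S100a9 and the receptors Csf3r and Cxcr2 were among the 5 of the 11 that were higher in aged Tregs, beside 9.8% of all genes. Without aged replicate 1 the count was 3, Retnlg, Csf3r and Cxcr2, beside 11.3% of all genes. S100a8 and S100a9 then had adjusted p of 0.132 and 0.062 (edgeR). Haemoglobin genes took 1.27% of the gene counts in aged replicate 1 and 1.24% in young replicate 2, and 5.91% to 13.1% in the other 5 libraries. The summed markers of plasmacytoid dendritic cells, a main source of type I interferon, were 216.9 to 281.5 CPM in aged and 322.5 to 418.9 CPM in young libraries, without overlap. Of the 6 of 8 such markers tested, 3 were lower and 1 higher in aged Tregs, beside 6.94% and 9.8% of all genes. The defining gene Siglech was at 1.22 to 2.43 CPM in aged and 3.58 to 6.63 CPM in young libraries, and the chemokine receptor Ccr9 at 3.65 to 5.85 CPM and 15.2 to 21.5 CPM. Spib, which B cells express too, was at 56.5 to 107.6 CPM and 159.3 to 258.7 CPM, and Runx2, a transcription factor of many cell types, was the one that was higher, at 30.2 to 48.4 CPM in aged and 15.1 to 20.1 CPM in young libraries. Siglech, Ccr9, Spib and Runx2 were called in the same direction without aged replicate 1. Without Spib the sums overlapped, at 122.9 to 173.9 CPM in aged and 154.1 to 163.2 CPM in young libraries, a sum made up mostly of Pacsin1, Tcf4 and Runx2. The summed markers of NK cells were lower in aged libraries (21.9 to 36.5 CPM, compared with 37.3 to 63.9 CPM) and those of platelets higher (20.2 to 39.5 CPM, compared with 8.20 to 17.3 CPM), both without overlap. The part of these cells in the levels of the interferon-stimulated genes was not tested.

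In the comparison of aged with young Tregs, 7 of the 47 interferon-stimulated genes changed (adjusted p under 0.05, edgeR quasi-likelihood test, adjusted over all genes tested). Higher in aged Tregs were Oas1a, Mx1, Parp12, Trim30d, Ifi44 and Ly6a, and lower was Ly6c1. These 7 are 14.9% of the genes, close to the 16.7% called among all 13904 genes tested. By direction, 6 rose (12.8%, compared with 9.8% of all genes) and 1 fell (2.13%, compared with 6.94%). The fitted log2 fold change was above 0 for 37 of the 47 genes (78.7%, compared with 52% of all genes), with a median of 0.44 beside 0.02 over all genes. In 8 genes, the 7 called ones and Stat2, the aged and young libraries did not overlap (17%), while 29.9% of all genes tested did not overlap. Aged libraries were the higher ones in 7 of the 8 genes and in 15.5% of all genes, and the lower ones in 1 gene and in 14.4%.

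Without aged replicate 1 this picture turned. The median log2 fold change of the 47 genes was then -0.01, 23 of them lay above 0, and 13 were called (27.7%, beside 21.5% of all genes). Of these, 5 were higher in aged Tregs (10.6%, beside 11.3%) and 8 lower (17%, beside 10.2%). The 5 higher genes were Oas1a, Mx1, Trim30d, Ifi44 and Ly6a. The 8 lower ones were Ly6c1 and 7 genes that had not been called before, namely Samd9l, Ddx58, Tlr7, Adar, Daxx, Dtx3l and Ifi203. Leaving out aged replicate 2 instead gave 13 calls as well, but 12 of them higher in aged Tregs, beside 7.58% of all genes, and 1 lower, beside 4.6% (12.2% in either direction). Among the 7 comparisons that each left out 1 library, Oas1a, Ifi44, Ly6a and Ly6c1 were called in all 7, Mx1 and Parp12 in 3 and Trim30d in 2.

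**Figure D2:**
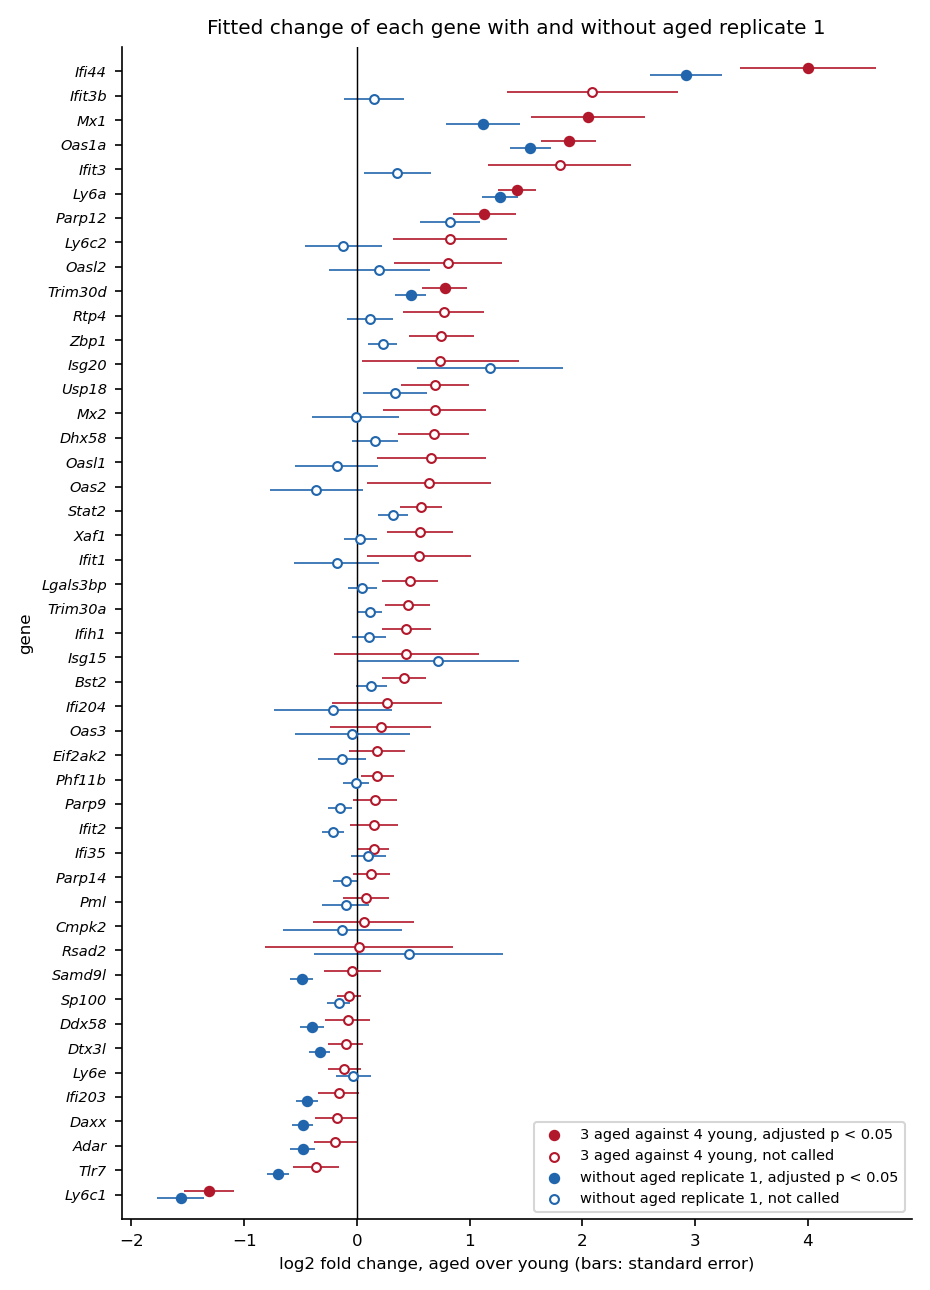
Fitted log2 fold change (aged over young, bars show the standard error) of each of the 47 genes, in red with all 7 libraries and in blue without aged replicate 1, filled where the adjusted p is under 0.05. Most blue points lie left of their red ones, and the median moves from 0.44 to -0.01.

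In the values per library that follow, replicates are given in the order of their numbers, for aged Tregs and then for young Tregs, and all levels are CPM. Among the OAS family, which makes the 2′-5′ oligoadenylates that switch on RNase L, Oas1a was the member that changed. Its level was 66.2, 39.1 and 35.5 in aged and 10.4, 10.8, 15.6 and 14.2 in young Tregs. Every aged library was above every young one. Oas1a had a log2 fold change of 1.88 (SE 0.244, adjusted p = 0.00241 by edgeR), and 1.54 without aged replicate 1. Of all 50-base stretches of the Oas1a exons, 57.6% also occur in its neighbours Oas1g and Oas1b, so reads may be split among them. Oas1g was at 0.562 to 4.11 CPM in aged and at 0 to 1.03 CPM in young libraries, and Oas1b had a log2 fold change of 0.58 (SE 0.285, adjusted p = 0.198 by edgeR).

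Oasl2, an OAS-like protein with ubiquitin-like repeats, was at 88.5, 35.8 and 33.2 in aged and 39.9, 10.3, 35.6 and 34.1 in young Tregs. Apart from aged replicate 1 and young replicate 2, its libraries spanned 33.2 to 39.9 at both ages, and its log2 fold change of 0.81 (SE 0.478) had an adjusted p of 0.276 (edgeR) and was 0.20 without aged replicate 1. Oas2, Oas3 and Oasl1 were not called either, with log2 fold changes of 0.21 to 0.66. Without aged replicate 1 these were -0.36, -0.04 and -0.18. Oas2 was called lower with aged replicate 1 and young replicate 2 both left out (-0.62, adjusted p = 0.0272 by edgeR).

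Mx1 encodes a dynamin-like antiviral protein, although its coding sequence is disrupted in C57BL/6 mice. Its level was 86.8, 18.6 and 28.4 in aged and 10.2, 6.03, 12.1 and 14.7 in young Tregs. Groups did not overlap, and aged replicate 1 was 3.69 times the mean of the other aged libraries. Mx1 had a log2 fold change of 2.05 (SE 0.51, adjusted p = 0.0289 by edgeR), which was 1.12 (adjusted p = 0.0464) without aged replicate 1. Its paralog Mx2, annotated as a polymorphic pseudogene, was not called (log2 fold change 0.69, SE 0.457, adjusted p = 0.337 by edgeR), and was at -0.01 without aged replicate 1.

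Ifi44, a cytoplasmic protein strongly induced by interferon, showed the largest fold change of the 47. Its level was 30.8, 6.14 and 8.14 in aged and 0.612, 1.19, 1.19 and 0.717 in young Tregs. All young libraries were a few times above the detection floor and well below the aged ones. It had a log2 fold change of 4.00 (SE 0.605, adjusted p = 0.00435 by edgeR), and 2.92 (SE 0.316) without aged replicate 1. Per kilobase of exon it was the least abundant of the 47 genes in young Tregs, at 0.151 CPM per kb. The other 3 genes of its group were not called, with log2 fold changes of 0.15 for Ifi35, 0.18 for Phf11b and 0.47 for the secreted glycoprotein Lgals3bp.

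Parp12, an ADP-ribosyltransferase that restricts several viruses, was at 34.8, 20.1 and 21.4 in aged and 14.7, 6.94, 13.1 and 12.0 in young Tregs. The rise on the log2 scale was 1.13 (SE 0.279, adjusted p = 0.0287 by edgeR), and without aged replicate 1 it was 0.83 with an adjusted p of 0.0635. Parp9, its partner ligase Dtx3l and Parp14 had log2 fold changes of -0.10 to 0.16 and were not called. Parp9 and Dtx3l overlap head to head, and reads in the overlap can be lost to both.

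Trim30d belongs to the TRIM30 cluster of ubiquitin ligases. It stood at 91.3, 45.5 and 63.5 in aged and 40.7, 38.6, 40.2 and 36.6 in young Tregs, with a narrow young range and no overlap. Trim30d had a log2 fold change of 0.78 (SE 0.201, adjusted p = 0.0335 by edgeR), or 0.48 (adjusted p = 0.0448) without aged replicate 1, and the call was lost in the 5 comparisons that left out aged replicate 3 or a young library. Trim30a, which restrains NF-kappa B signalling, had a log2 fold change of 0.45 (SE 0.202, adjusted p = 0.162 by edgeR). The p200 proteins Ifi203 and Ifi204, which bind DNA, were at -0.16 and 0.27.

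The Ly6 surface proteins went both ways. Ly6a, known as Sca-1, was at 297, 206 and 239 in aged and 78.7, 115, 82.1 and 92.8 in young Tregs. Its lowest aged library was clearly above the highest young one, and the log2 fold change was 1.42 (SE 0.169, adjusted p = 0.00162 by edgeR), or 1.27 without aged replicate 1. Ly6c1, which with Ly6c2 encodes the Ly6C antigen of monocytes and T cells, was at 27.1, 20.5 and 14.1 in aged and 48.1, 63.6, 45.7 and 46.8 in young Tregs. It fell by 1.31 on the log2 scale (SE 0.222, adjusted p = 0.00693 by edgeR), and by 1.56 without aged replicate 1.

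Ly6c2 was at 108, 31.4 and 25.7 in aged and 20.5, 39.9, 42.9 and 20.5 in young Tregs. Its groups overlapped, and the log2 fold change of 0.83 (SE 0.506, adjusted p = 0.295 by edgeR) became -0.12 without aged replicate 1. Ly6c1 shares 32.8% of its 50-base stretches with other genes, mainly Ly6c2, and Ly6a shares 19% with Ly6c1, Ly6i and others. Ly6i itself was at 1.43 CPM or less in every library. Ly6e, the most abundant of the 47 genes per length (422 CPM per kb in young Tregs), was not called, at a log2 fold change of -0.11 (SE 0.147, adjusted p = 0.638 by edgeR).

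Ly6a and Ly6c1 are also known to vary with the memory state of T cells, and transcripts used as markers of that state differed between the ages. All 7 naive T cell markers were lower in aged Tregs, beside 6.94% of all genes. Their summed levels were 906 to 1151 CPM compared with 1947 to 2119 CPM in young Tregs. All 7 were also lower without aged replicate 1, beside 10.2% of all genes. Effector memory markers were higher for 5 of 9, beside 9.8% of all genes, and for 4 without aged replicate 1, beside 11.3%. Cd44, Itgb1, Cxcr6 and Id2 were not called. The summed levels of the 9 were 773 to 904.4 CPM compared with 556.5 to 683.8 CPM. No marker of either list was at 0 in any library. The part of these shifts in the levels of Ly6a and Ly6c1 was not tested.

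**Figure D3:**
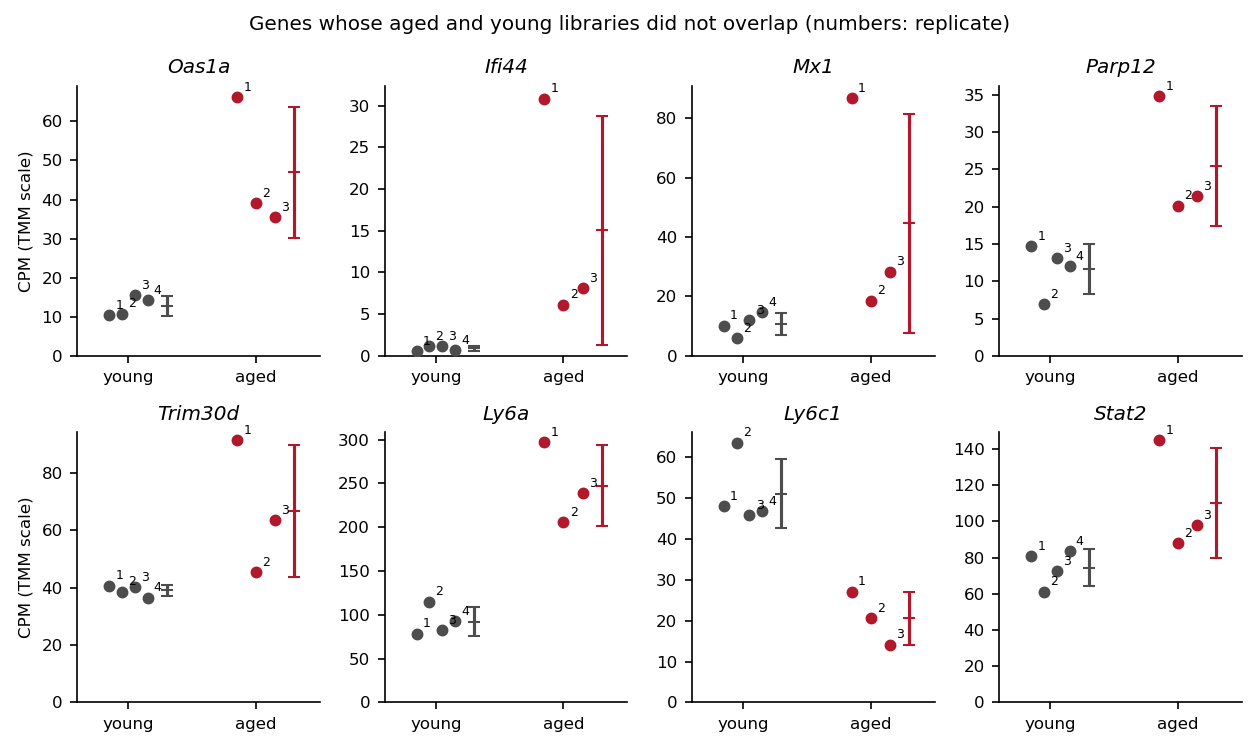
Levels in CPM of the 7 called genes and Stat2, by age (points are libraries with their replicate number, bars show mean ± SD of 3 aged and 4 young libraries, axes start at 0). Aged and young points do not overlap in any panel, Ly6c1 is lower in aged Tregs, and aged replicate 1 is the highest aged point in every panel.

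Stat2, the ISGF3 subunit on the list, was at 145, 88.1 and 97.9 in aged and 80.7, 61.2, 72.7 and 83.7 in young Tregs. The groups did not overlap, but aged replicate 2 lay close to young replicate 4, and the log2 fold change of 0.57 (SE 0.183) had an adjusted p of 0.0681 (edgeR). DESeq2 gave 0.54 with an adjusted p of 0.0409, the lowest of the alternatives, which ran up to 0.153 with aged replicate 1 and young replicate 2 both left out. Without aged replicate 1 alone the log2 fold change was 0.32 (adjusted p = 0.138 by edgeR).

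None of the 4 genes of the IFIT family of RNA-binding proteins was called. Ifit3 was at 118, 13.7 and 25.1 in aged and 12.9, 11.0, 17.5 and 19.0 in young Tregs. Aged replicate 2 was within the young range and aged replicate 1 far above it. The log2 fold change of 1.80 (SE 0.633, adjusted p = 0.0877 by edgeR) fell to 0.36 without aged replicate 1, and rose to 2.24 (adjusted p = 0.0321) without aged replicate 2. The near-identical Ifit3b, chosen here after its values were seen, was likewise far highest in aged replicate 1, at 31.5, 2.92 and 3.74 in aged and 2.52 to 3.80 in young Tregs. Aged replicate 3 lay within the young range for Ifit3b and above it for Ifit3. The pair shares 51.2% of the 50-base stretches of Ifit3, and cannot be fully separated by reads.

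Ifit1 was at 81.7, 30.2 and 24.6 in aged and 39.9, 13.9, 35.3 and 35.1 in young Tregs. Aged replicates 2 and 3 were below 3 of the 4 young libraries. Its log2 fold change was 0.55 (SE 0.463, adjusted p = 0.451 by edgeR), and -0.18 without aged replicate 1. Ifit2 was at a log2 fold change of 0.15.

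Usp18 removes ISG15 from proteins and blocks signalling at IFNAR2. It was at 58.4, 37.6 and 27.3 in aged and 29.8, 15.1, 26.2 and 31.0 in young Tregs, so that aged replicate 3 lay within the young range. The log2 fold change was 0.69 (SE 0.302, adjusted p = 0.153 by edgeR), and 0.34 without aged replicate 1. Isg15, the ubiquitin-like modifier itself, was at 80.5, 264 and 90.0 in aged and 148, 19.0, 125 and 135 in young Tregs. Its highest library was aged replicate 2 and its lowest young replicate 2, and the log2 fold change of 0.44 (SE 0.647, adjusted p = 0.685 by edgeR) turned to -0.33 without aged replicate 2 and was 0.72 without aged replicate 1.

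Isg15 was one of a few genes that did not follow aged replicate 1. Rsad2 encodes viperin, which makes a chain-terminating nucleotide, and was at 144, 1036 and 413 in aged and 894, 56.6, 522 and 628 in young Tregs. Isg20, an RNA exonuclease singled out after its values were seen, was at 129, 925.5 and 327 in aged and 474, 71.5, 286 and 275 in young Tregs. In both, libraries of the same age differed several-fold, whereas the log2 fold changes between ages were 0.02 (SE 0.834) for Rsad2 and 0.74 (SE 0.698) for Isg20, with adjusted p of 0.992 and 0.509 (edgeR). Without aged replicate 1 they were 0.46 and 1.18. Over the comparisons that each left out a library, the value ran from -0.92 to 0.46 for Rsad2 and from -0.28 to 1.18 for Isg20.

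Haemoglobin genes made up 1.27%, 13.1% and 7.6% of the gene counts in aged and 10.4%, 1.24%, 6.15% and 5.91% in young libraries. Isg20 ranked the 7 libraries exactly as the summed haemoglobin level did, which held for 12 of all genes tested (0.0863%). In Isg15, Isg20 and Rsad2, aged replicate 1 and young replicate 2 were the 2 lowest of the 7 libraries, and aged replicate 2 and young replicate 1 the 2 highest, as for haemoglobin. That pattern was seen in 354 of all genes tested (2.55%), and in no further gene of the 47. The part of red cell precursors in the levels of these 3 genes was not tested.

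**Figure D4:**
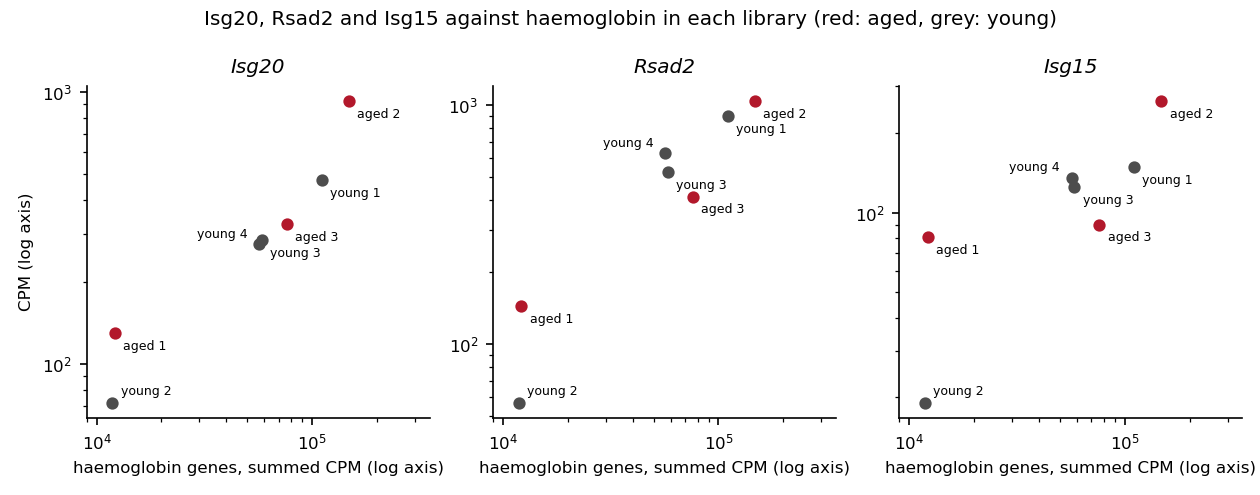
Level of Isg20, Rsad2 and Isg15 (CPM, log axis) against the summed level of haemoglobin genes (CPM, log axis) in each of the 7 libraries, aged in red and young in grey. Aged replicate 1 and young replicate 2 sit at the low end of both axes, with 1.27% and 1.24% of gene counts from haemoglobin genes.

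The other antiviral effectors were not called. Bst2, or tetherin, which holds budding virions at the cell surface, was at 77.3, 46.9 and 47.6 in aged and 34.4, 48.4, 44.5 and 44.5 in young Tregs. Aged replicates 2 and 3 were both below young replicate 2. Its log2 fold change was 0.42 (SE 0.196, adjusted p = 0.18 by edgeR), and 0.13 without aged replicate 1. Samd9l, which inhibits translation, was at 436, 206 and 213 in aged and 273 to 307 in young Tregs. Its fitted log2 difference was -0.04 with all libraries and -0.49 (SE 0.0988, adjusted p = 0.0144 by edgeR) without aged replicate 1. Cmpk2, Rtp4 and Xaf1 had log2 fold changes of 0.06 to 0.77.

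None of the 7 sensors and editors of nucleic acids was called by edgeR with all libraries. Without aged replicate 1, 3 were lower, beside 10.2% of all genes. Ddx58, which encodes the RNA sensor RIG-I, was at 136, 72.9 and 84.1 in aged and 103, 93.6, 111 and 106 in young Tregs. Aged replicates 2 and 3 were below all 4 young libraries and aged replicate 1 above them. The log2 fold change was -0.08 (SE 0.198, adjusted p = 0.817 by edgeR), and -0.40 (adjusted p = 0.0363) without aged replicate 1.

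Tlr7, the endosomal receptor for single-stranded RNA, was at 43.6, 23.3 and 25.7 in aged and 38.4, 40.2, 39.6 and 41.1 in young Tregs. The young libraries were tightly grouped, and aged replicates 2 and 3 fell well below them. Its log2 fold change was -0.36 (SE 0.203, adjusted p = 0.252 by edgeR), and -0.70 (SE 0.101, adjusted p = 0.00498) without aged replicate 1. Adar, the RNA-editing deaminase, was likewise not called with all libraries (-0.19) and was lower without aged replicate 1 (-0.48, adjusted p = 0.0217 by edgeR). Its young libraries were less tightly grouped, at 142.9 to 176 CPM.

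Zbp1, a sensor of Z-form nucleic acids that triggers necroptosis, was at 258, 94.5 and 131 in aged and 94.5, 98.0, 95.6 and 94.5 in young Tregs. Aged replicate 2 could not be told from the young libraries, which were almost level. The log2 fold change was 0.75 (SE 0.287, adjusted p = 0.108 by edgeR), with 0.23 (adjusted p = 0.24) without aged replicate 1 and 1.02 (adjusted p = 0.0296) without aged replicate 2. DESeq2 called Zbp1 higher with all libraries (0.73, adjusted p = 0.0431). The remaining sensors, Ifih1 (MDA5), Dhx58 (LGP2) and the kinase Eif2ak2 (PKR), had log2 fold changes of 0.18 to 0.68. Of these, Dhx58 was called higher in 1 of the 7 comparisons that left out a library (adjusted p = 0.029 by edgeR). The nuclear body proteins Pml, Sp100 and Daxx were at 0.08, -0.07 and -0.18, and Daxx was lower in aged Tregs without aged replicate 1 (-0.48, adjusted p = 0.0114 by edgeR).

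In all, 28 of the 47 genes were neither called, nor without overlap, nor among the genes listed for description by name. Their log2 fold changes ran from -0.19 to 2.09, 21 above 0 and 7 below, with standard errors of 0.107 to 0.754 and adjusted p of 0.0932 to 0.947 (edgeR). Without aged replicate 1 they ran from -0.49 to 1.18, 9 above 0 and 19 below. Of the 28, 5 were then called, all lower, beside 10.2% of all genes lower and 21.5% in either direction. Ifit3b, Rtp4 and Dhx58 went the other way, each called higher in 1 other comparison that left out a library.

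The other genes of the interferon pathway were looked up from lists of 54 symbols, of which 39 were in the series and 33 tested. Of these 33, 2 were higher (Irf1 and Socs3) and 3 lower (Ifnar1, Ifngr2 and Ptpn6) in aged Tregs, beside the 9.8% and 6.94% of all genes given above, and their median log2 fold change was -0.12. Without aged replicate 1, 2 were higher and 4 lower, beside 11.3% and 10.2% of all genes, with a median of -0.07. Ptpn6 was then no longer called, and Jak1 and Trim25, named after their values were seen, were called lower. Of 21 interferon genes, 6 had any count and 1 was tested, Ifng, at 4.89, 5.54 and 5.80 in aged and 2.36, 5.26, 3.63 and 2.08 in young Tregs (log2 fold change 0.69, SE 0.324, adjusted p = 0.179 by edgeR).

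Irf1, an interferon-inducible transcription factor, was at 251, 246 and 333 in aged and 160, 168, 145 and 168 in young Tregs (log2 fold change 0.79, SE 0.13, adjusted p = 0.00624 by edgeR). Socs3, a feedback inhibitor of JAK signalling, was at 220.3, 144 and 146 in aged and 81.3, 79.6, 58.0 and 76.8 in young Tregs, with a log2 fold change of 1.20 (SE 0.181, adjusted p = 0.00427 by edgeR). Both showed no overlap between ages.

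Of the receptor chains, Ifngr2 and Ifnar1 were lower, and Ifnar2 and Ifngr1 were not called by edgeR with all libraries. Ifngr2, the signalling chain of the interferon gamma receptor, was at 25.7, 27.6 and 27.8 in aged and 48.6, 46.0, 49.1 and 48.0 in young Tregs, and fell by 0.83 on the log2 scale (SE 0.0868, adjusted p = 0.00117 by edgeR). Ifnar1 was at 144, 129 and 108 in aged and 179.9, 164, 165 and 166 in young Tregs. It fell by 0.41 (SE 0.113, adjusted p = 0.0402 by edgeR), a call that was kept in 1 of the 7 comparisons that left out a library. Ptpn6 (SHP-1), a phosphatase that damps JAK signalling, was at 172, 230.3 and 220.3 in aged and 284, 299, 270.1 and 359 in young Tregs. It fell by 0.55 (SE 0.146, adjusted p = 0.0373 by edgeR) and was likewise kept in 1 of 7, with -0.43 and an adjusted p of 0.0618 without aged replicate 1.

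Ifnar2 was at 49.4, 56.4 and 50.5 in aged and 60.5, 51.0, 55.8 and 59.9 in young Tregs (log2 fold change -0.13, SE 0.0959, adjusted p = 0.409 by edgeR). Ifngr1, the ligand-binding chain of the gamma receptor, was at 585, 345 and 411 in aged and 243, 407, 220.1 and 199 in young Tregs (0.74, SE 0.274, adjusted p = 0.0991 by edgeR), with young replicate 2 at the level of aged replicate 3. It was called higher by DESeq2 (0.72, adjusted p = 0.0302), without young replicate 2 (1.02, adjusted p = 0.0162 by edgeR) and without both aged replicate 1 and young replicate 2 (0.77, adjusted p = 0.00662 by edgeR), and not under the other settings tried (adjusted p of up to 0.296). Irf9, the DNA-binding subunit of ISGF3, was at 174, 144 and 145 in aged and 134, 109, 124 and 144 in young Tregs (0.27, SE 0.123, adjusted p = 0.16 by edgeR). Irf7, the amplifier of interferon production, was at 270.3, 108 and 101 in aged and 146, 49.3, 123 and 129 in young Tregs (0.51, SE 0.431, adjusted p = 0.453 by edgeR). It was highest in aged replicate 1 and lowest in young replicate 2, and its log2 fold change was -0.10 without aged replicate 1.

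**Figure D5:**
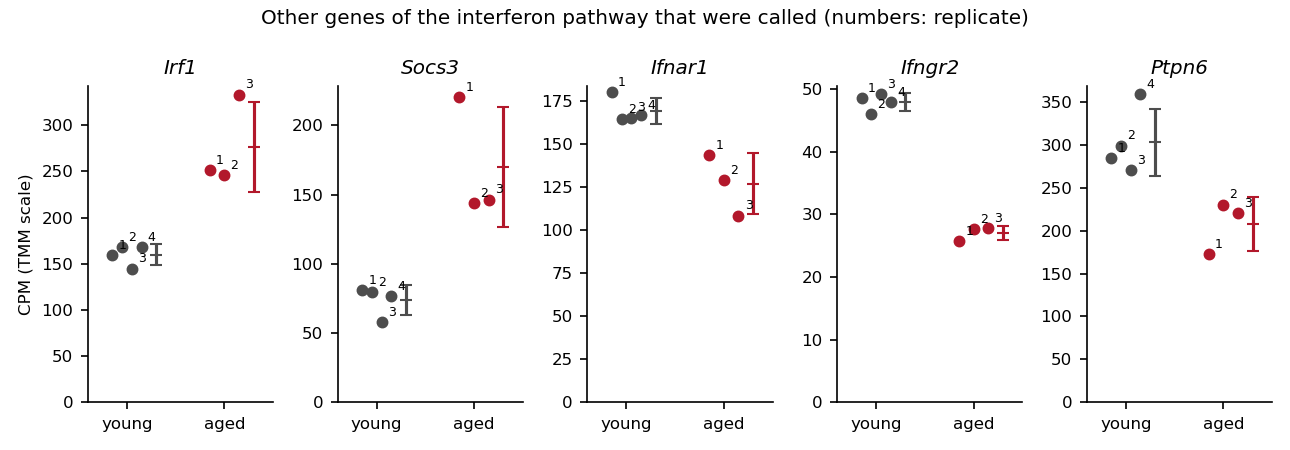
Levels in CPM of the 5 other pathway genes that were called, by age (points are libraries with their replicate number, bars show mean ± SD of 3 aged and 4 young libraries, axes start at 0). Irf1 and Socs3 are higher and Ifnar1, Ifngr2 and Ptpn6 lower in all 3 aged libraries than in all 4 young ones.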

How the data were processed

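Splenic CD4+CD25+ cells were profiled in 3 libraries from aged and 4 from young mice by RNA-sequencing of SMART-Seq v4 cDNA. The authors deposited raw counts per Ensembl gene for each library. The layout is that of HTSeq-count, and the naming points to union mode without strand. Overlapping genes can then lose reads, and near-identical genes can share or lose them. Lines for reads not on 1 gene (13.1% to 20.9%) were left out. The build is mm10 per the labels (GRCm38), and the aligner is not given in the sources used here. The authors also deposited a series table with a signal, the count divided by 1 size factor per library, used here for its gene symbols and to check the counts. That deposited table also holds results of the authors' own comparison, which were not used: log2 fold changes and their errors on the log2 scale, a test statistic (a score), p-values and adjusted p-values, under column names of DESeq2.

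Counts were tested in R 4.3.3 by the quasi-likelihood test of edgeR 4.0.16 (TMM, filterByExpr by group, no covariate), with p-values adjusted by the Benjamini-Hochberg method over all genes tested and a call at an adjusted p under 0.05. The SE was derived by dividing the size of a fitted change by the square root of F. CPM are on the TMM scale. The script was tested on simulated data with 200 changed genes. There edgeR recovered 139 with 6 false calls, limma voom 140 with 4, and DESeq2 165 with 39. Calls made by DESeq2 and not by edgeR are to be read with these false calls in mind. Replicates differed by more than sampling noise.

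The genes and lists were chosen with earlier results of these data known. Values in every library are given for called genes, for genes without overlap between ages and for Isg15, Usp18, Ifit1, Ifit3, Oasl2, Mx1, Rsad2, Stat2, Ddx58, Zbp1, Bst2, Tlr7, Ly6a and Ly6c2, and, of the pathway lists, for called genes and for Ifnar1, Ifnar2, Ifngr1, Irf9, Irf7 and Ifng. The result for 1 pathway gene is not reported here, and that gene was left out of the pathway counts. Marker lists of 14 cell types were summed. Those of Treg, T, CD8 T, NK, B, plasma cells, monocytes or macrophages, dendritic cells, erythroid cells and platelets held 0 to 1 markers higher and 0 to 3 lower in aged Tregs, and of these lists the summed levels did not overlap between ages for NK cells and platelets. Positions come from GENCODE M21, matched by Ensembl identifier.

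Alternatives were DESeq2 1.42.0, limma voom (limma 3.58.1), RLE or library size only, gene classes or GC content and length trends removed, no filter, at least 10 counts in every library, a replicate block, each library left out, and a limit of 1 on the size of the log2 fold change. Leaving out both aged replicate 1 and young replicate 2 was added after seeing the data.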

Additional observations from a re-analysis of the deposited data

Results flagged for a closer look

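In groups of 4, the gap of the highest or lowest library to its neighbour was compared with Dixon's 95% critical value over the 4 young libraries. Of 58 genes looked at, 2 passed it, and chance alone gives about 1 in 20. Ly6c1 was at 63.55 CPM in young replicate 2, and at 45.7 to 48.1 CPM in the other young libraries. Ifnar1 was at 179.9 CPM in young replicate 1, and at 164 to 166 CPM in the others. Both genes were lower in every aged library than in every young one, and Ly6c1 was called in all 7 comparisons that left out a library.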

How the results depend on the processing

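DESeq2, limma voom, other normalizations and other low-count filters gave 6 to 9 calls among the interferon-stimulated genes, beside 7, and called 8.72% to 17.6% of all genes. A limit of 1 on the log2 fold change left 6 (12.8% of the 47, beside 7.31% of all genes), 5 higher and 1 lower. Single libraries moved the count more. Leaving out 1 library at a time gave 4 to 13 calls, 3 to 12 higher and 1 to 8 lower, beside 8.9% to 21.5% of all genes (4 calls, 8.51% of the 47, stood beside 9.28% and 9.03% without young replicates 3 and 4), with a median log2 fold change of -0.01 (without aged replicate 1) to 0.62. With aged replicate 1 and young replicate 2 both left out, 14 were called (29.8%, beside 23.1% of all genes), and the median was 0.03. Of these 14, 9 were lower (19.1%, beside 10.5% of all genes) and 5 higher (10.6%, beside 12.6%). Ifit1, Oasl2 and Irf7 were then at -0.43, -0.09 and -0.35. The log2 fold change of 20 of the 47 genes was on either side of 0 depending on the library left out, as was that of Irf7. Of those listed for description by name, it ranged from -0.18 to 0.85 for Ifit1, -0.12 to 1.17 for Ly6c2, -0.10 to 0.76 for Irf7, -0.33 to 0.72 for Isg15, -0.92 to 0.46 for Rsad2 and -0.40 to 0.09 for Ddx58. For Isg20 it ranged from -0.28 to 1.18. Rsad2 was also at -0.02 with DESeq2, -0.10 with library size only and -0.00 with no filter. Mx1 was not called by voom (adjusted p = 0.0585, 0.0072 to 0.0763 over the alternatives), nor Trim30d with library size only (adjusted p = 0.0731, 0.00531 to 0.131). Of the other pathway genes, DESeq2 called 10 of 34 (29.4%, beside 16.9% of all genes), the comparison without both libraries 9 of 33 (27.3%, beside 23.1%), the limit of 1 on the log2 fold change 1 (3.03%, beside 7.31%) and the comparisons without 1 library 3 to 6 (8.82% to 18.2%, beside 8.9% to 21.5%), compared with 5 (15.2%, beside 16.7%). Of the genes listed for description by name, those called in some alternatives only were Stat2, Zbp1, Ifit3, Ddx58, Tlr7, Ifngr1 and Ifng. Ifng was at 1.01 and 1.07 without young replicate 2 and without both libraries (adjusted p = 0.046 and 0.041 by edgeR). Other genes named above were also called in alternatives only. Samd9l, Adar, Daxx, Dtx3l, Ifi203, Jak1 and Trim25 were lower without aged replicate 1, and Oas2 without both libraries. Ifit3b, Rtp4 and Dhx58 were each higher in 1 comparison that left out a library. The cause was not tested. With the replicate number as a replicate block in edgeR, 0 interferon-stimulated genes (0 higher, 0 lower) and 2 pathway genes were called, beside 292 of all genes (2.1%). The median log2 fold change of the 47 genes under the block was 0.40. The labels do not say whether same-numbered libraries were processed together, and young replicate 4 has no aged library of its number. Deviations of same-numbered libraries from their group means had correlations of -0.292 to -0.0915. These values cannot decide whether the block is warranted.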
